A study of Homo sapiens with 6 samples.

Results

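In all, 10 genes that set the entry into the cell cycle were followed in A549 cells after knock-down of KMT9α: the kinases CDK4 and CDK6, the D cyclins CCND1, CCND2 and CCND3, and the CDK inhibitors CDKN1A, CDKN1B, CDKN2A, CDKN2B and CDKN2C. These 10 genes were chosen by name out of 23180 gene symbols, and where several transcripts were listed for a gene, the one with the most counts over all 6 samples stood for it. RNA-Seq had been performed on 3 siControl and 3 siKMT9α#1 samples, which are described as biological replicates. A549 is an established human lung adenocarcinoma line with mutated CDKN2A, used here at passage 11 and with a genotype labelled WT, and all 6 cultures had been transfected with siRNA at 65 nM and were harvested 3 days later. The control cells had received siControl, and the other cells siKMT9α#1, an siRNA against KMT9α (gene symbol N6AMT1), the catalytic subunit of the KMT9 complex that writes the histone mark H4K12me1. The sample labels name the target without the siRNA's number, which was taken from the study's methods. The knock-down was transient, rested on a single siRNA in 1 cell line, and left residual N6AMT1 mRNA.

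D cyclins bind CDK4 and CDK6 and direct them to the retinoblastoma protein, whose phosphorylation releases E2F factors and lets cells pass from G1 into S phase. The INK4 inhibitors, encoded by CDKN2A, CDKN2B, CDKN2C and CDKN2D (the last not among the 10 genes), bind CDK4 and CDK6 and keep the D cyclins off. The CIP/KIP inhibitors, encoded by CDKN1A and CDKN1B, bind cyclin-CDK complexes, block CDK2 and also help D cyclins assemble with their kinases. A549 is widely known for carrying a deletion of the CDKN2A region.

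N6AMT1 was measured at 10.2, 10.8 and 11.5 CPM (counts per 1000000 counts of a sample, scaled by TMM) in siControl and at 2.87, 3.22 and 3.35 CPM in siKMT9α#1, a log2 fold change of -1.77 (SE 0.12). Total counts, taken over 1 transcript per gene, ran from 15551778 to 18568639.5 in siControl and from 13740097 to 19832395.5 in siKMT9α#1, and 13877 genes passed the filter on low counts. The epithelial keratins KRT8, KRT18 and KRT7 averaged 1281, 2041 and 1260.2 CPM in siControl, EPCAM 3.86 CPM and CDH1 3.39 CPM. Of 6 epithelial markers 1 was higher and 4 were lower after knock-down at an adjusted p under 0.05 (median log2 fold change -0.72). Of all genes tested, 75.6% passed that rule, 37.1% higher and 38.5% lower, so this count does not set the markers apart. Of 9 fibroblast, endothelial and blood markers, 6 stayed under 10 counts in every sample, among them COL1A2 and CD3E at 0. The summed level of the 9 was 82.5 to 89.7 CPM in siControl and 30.1 to 31.7 CPM in siKMT9α#1, nearly all of it CD68. The part of these shifts in the results was not tested.

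Of the 10 genes, 7 differed between the groups. CCND1 mRNA rose 2.10-fold after KMT9α knock-down, CDK4, CDK6, CCND2, CCND3, CDKN1B and CDKN2C fell, CDKN1A gave no difference past the threshold, and CDKN2A and CDKN2B had no counts in either group. In numbers, 8 of the 10 genes had counts and all 8 passed the filter, of which 1 was higher, 6 were lower and 1 was not called at an adjusted p under 0.05 (edgeR's quasi-likelihood test, adjusted by Benjamini-Hochberg). Among all 13877 genes tested the same rule called 75.6%, with 37.1% higher and 38.5% lower, so that being called was common in this comparison. With scaling by library size alone, which shifts the median of all genes by -0.11 on the log2 scale, the same member counts were obtained. With trends in GC content and length removed, CDKN1A was called too and 2 members were higher. A filter of at least 10 counts in every sample removed CCND2 and left 5 lower. The 3 siControl and 3 siKMT9α#1 values did not overlap for 7 members, while 77.0% of all genes tested showed no overlap. The median log2 fold change was -0.40 over the 8 members and -0.01 over all genes tested, and the median size without sign was 0.46 and 0.47. In these bulk samples, fewer cells in a cell cycle phase and less RNA per cell cannot be told apart. By propidium iodide staining of A549 cells given the same siRNAs, the paper found no significant shift between phases up to the day of harvest. How this bears on the RNA values was not tested. For a single gene, the exact permutation test of 3 against 3 samples cannot give a p below 0.1.

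**Figure D1:**
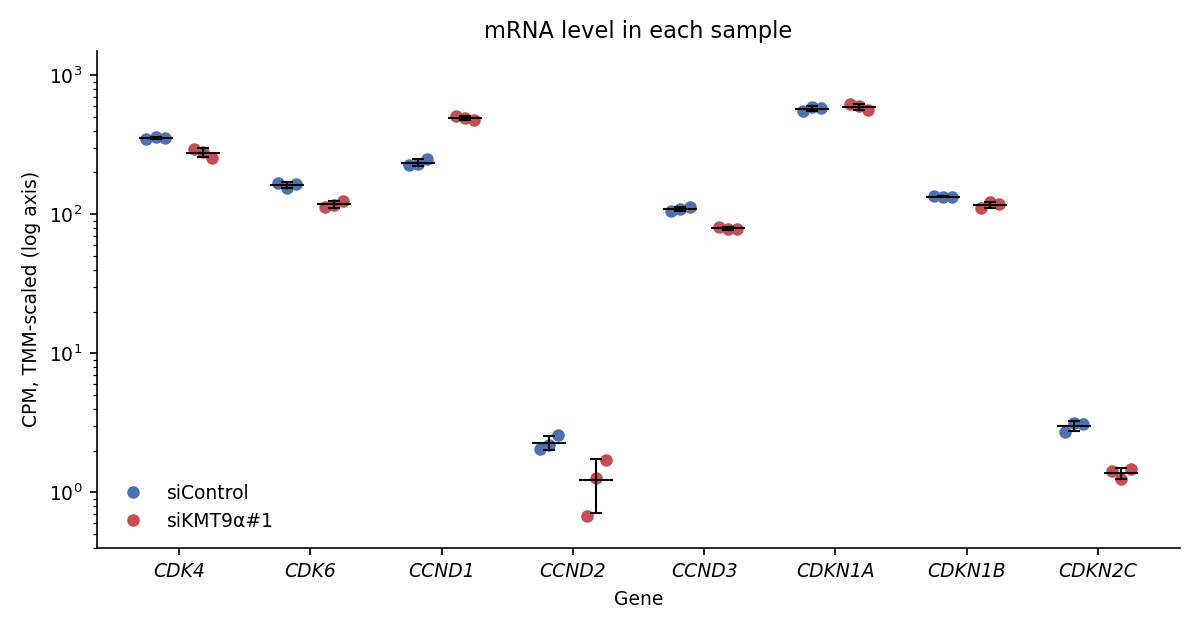
Level of each member with counts in every sample, as TMM-scaled CPM on a log axis, with 3 siControl and 3 siKMT9α#1 points per gene and the mean with its SD in black. The siKMT9α#1 points lie above the siControl points for CCND1 and below them for 6 genes, and the groups overlap for CDKN1A.

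Per kilobase of transcript, the order of the levels changed in the middle of the family. In siControl, CDKN1A had the highest level at 254.3 ± 9.86 CPM per kilobase (SD, n = 3), followed by CDK4 at 177.3 ± 3.61. CDKN1B at 55.7 ± 0.75, CCND1 at 55.0 ± 3.04 and CCND3 at 53.5 ± 2.03 CPM per kilobase could not be put in order, since their samples overlapped. Below them came CDK6 at 14.0 ± 0.63, CDKN2C at 1.45 ± 0.12 and CCND2 at 0.35 ± 0.043 CPM per kilobase, each clear of its neighbours. After knock-down CCND1 came next to the kinase CDK4, at 115.6 ± 3.86 CPM per kilobase, below CDK4 at 139.9 ± 10.3 and above CDKN1B at 48.7 ± 2.41 and CCND3 at 38.9 ± 0.93. In that group the samples of neighbouring genes no longer overlapped. The lowest levels were again those of CDK6 at 10.2 ± 0.58, CDKN2C at 0.66 ± 0.058 and CCND2 at 0.19 ± 0.079 CPM per kilobase.

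Both kinases fell. CDK4, the D-cyclin kinase with the higher mRNA level in these samples, lies on the minus strand at chr12:58141510-58146230 (hg19). CDK4 was at 345.2, 359.5 and 352.4 CPM in siControl and at 295.8, 282.6 and 255.5 CPM in siKMT9α#1. Every siKMT9α#1 sample was below every siControl sample, with the lowest value in replicate 3. The mean went from 352.4 ± 7.17 to 278.0 ± 20.6 CPM (n = 3, SD), which gave a log2 fold change of -0.34 (SE 0.053) and an adjusted p of 9.39e-06 in edgeR's quasi-likelihood test. The 3′ part of CDK4 shares 517 bases with TSPAN31 on the opposite strand, and because the strand setting of the counting is not stated, reads there cannot be assigned to either gene. TSPAN31 had 3380 counts over the 6 samples against 31766 for CDK4.

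The start of CDK4 is shown because it stands out from most windows by one motif: it holds the E-box CACGTG, the element bound by MYC family factors, 3 times. The window runs from 250 bases before to 50 bases after the RefSeq start (GRCh38.p14, minus strand, chr12:57752261-57752560), and capitals mark the E-box and the GC box GGGCGG, found on either strand.
CDK4: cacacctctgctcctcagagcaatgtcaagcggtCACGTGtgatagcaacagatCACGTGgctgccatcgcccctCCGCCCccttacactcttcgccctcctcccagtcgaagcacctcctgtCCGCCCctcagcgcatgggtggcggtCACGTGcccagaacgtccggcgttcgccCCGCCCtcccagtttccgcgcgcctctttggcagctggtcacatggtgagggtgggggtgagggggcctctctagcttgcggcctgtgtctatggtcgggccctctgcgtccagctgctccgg
Of 35116 such windows over all genes, 7.26% hold at least 1 E-box and 45.0% at least 1 GC box. CDK4 also holds 3 GC boxes, and a match to these letters is a description of the sequence only.

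CDK6, the second D-cyclin kinase, lies on the minus strand at chr7:92234235-92463231 (hg19). It was at 167.9, 154.1 and 164.9 CPM in siControl and at 112.1, 117.1 and 125.5 CPM in siKMT9α#1. The groups were clearly apart, with 154.1 as the lowest siControl and 125.5 as the highest siKMT9α#1 value. The mean went from 162.3 ± 7.27 to 118.2 ± 6.76 CPM, a log2 fold change of -0.46 (SE 0.053, adjusted p = 2.31e-07, edgeR's quasi-likelihood test). Fitted each on its own row, both listed CDK6 transcripts gave -0.46 and -0.45. Their rows hold nearly the same counts (3161.5 and 3161 in siControl replicate 1), so they are not separate evidence. CDK6 is AT-rich and long, with 39.5% GC and 11597 bases against medians of 49.1% and 2922 bases among the genes tested, and with per-sample trends in GC content and length removed its log2 fold change was -0.81.

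CDK6 was also the only one of the 8 tested members with a match to the seed of the siRNA. The 7 bases ACATTCA, complementary to bases 2 to 8 of the siKMT9α#1 guide strand, occur at 2 places in the 3′ UTR of CDK6-201, both in exon 8 of 8. They are shown with their surroundings (GRCh37, minus strand, chr7:92239447-92239475 and chr7:92235648-92235676), with the seed match in capitals.
CDK6 site at UTR base 4990: agtctttctaaACATTCAcactgtcctaa
CDK6 site at UTR base 8789: ttgacctagccACATTCAtctagagatgg
Of 12718 tested genes with an annotated 3′ UTR, 11.6% had at least 1 such match and 1.80% at least 2. The CDK6 3′ UTR has 10219 bases, a length reached by 0.322% of those genes, and its density of matches was 0.196 per kilobase against 0.0847 over all of them. Whether these matches have a part in the fall of CDK6 was not tested. The tested members that fell without a match were CDK4, CCND2, CCND3, CDKN1B and CDKN2C.

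Without correction for GC content and length, the share of CDK6 among the kinases gave no difference larger than its spread. CDK6 made up 7.69%, 6.84% and 7.42% of the summed CDK4 and CDK6 level per kilobase in siControl and 6.10%, 6.63% and 7.76% in siKMT9α#1. These samples overlapped, and the means of 7.32% ± 0.44 and 6.83% ± 0.85 gave an exact permutation p of 0.5 (two-sided). With trends in GC content and length removed, the log2 fold changes were -0.81 (SE 0.043) for CDK6 and -0.25 (SE 0.044) for CDK4, further apart than in the TMM-scaled fit, and the share was not computed under that setting. The summed level of both kinases went from 191.3 ± 3.02 to 150.1 ± 9.77 CPM per kilobase, without overlap between the groups (exact permutation p = 0.1, the smallest possible with n = 3).

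The D cyclins moved apart: CCND1 rose and CCND3 and CCND2 fell. CCND1, which encodes cyclin D1, the D cyclin induced by mitogen signalling in many epithelial cells, lies on the plus strand at chr11:69455873-69469242 (hg19). It was at 225.0, 231.1 and 249.9 CPM in siControl and at 512.1, 493.1 and 479.2 CPM in siKMT9α#1. All siKMT9α#1 samples lay near 500 CPM and none came close to the siControl samples. The mean rose from 235.4 ± 13.0 to 494.8 ± 16.5 CPM, a 2.10-fold difference with a log2 fold change of 1.07 (SE 0.051, adjusted p = 4.26e-13, edgeR's quasi-likelihood test). A log2 fold change at least this large was found in 9.04% of all genes tested. For CCND1 it was 0.97 with library size alone and 0.90 with trends in GC content and length removed. In edgeR's quasi-likelihood test, CCND1 was the only member past the stricter threshold of the study. That threshold is an unadjusted p below 1e-08 with a log2 fold change beyond 0.26 in either direction. It was passed by 24.2% of all genes tested (13.5% higher and 10.7% lower). With the likelihood-ratio test and with DESeq2, CDK4, CDK6 and CCND3 passed it too, and the study names edgeR without saying which test.

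CCND3, which encodes cyclin D3, lies on the minus strand at chr6:41902671-41909552 (hg19). It was at 105.1, 109.2 and 113.4 CPM in siControl and at 81.5, 78.2 and 78.4 CPM in siKMT9α#1. The siKMT9α#1 samples were close to each other and all below the siControl samples. The mean went from 109.2 ± 4.15 to 79.4 ± 1.90 CPM, a log2 fold change of -0.46 (SE 0.050, adjusted p = 7.59e-08, edgeR's quasi-likelihood test). The unadjusted p of CCND3 was 1.96e-08, just short of the study's threshold. Its 4 listed transcripts fell by 0.42 to 0.46 on the log2 scale. They lie in overlapping spans with similar counts, so these values are not independent. CCND3 is GC-rich at 59.1%, and with the trends in GC content and length removed its log2 fold change was -0.27.

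CCND2, which encodes cyclin D2 and lies on the plus strand at chr12:4382902-4414522 (hg19), was barely expressed. It had 39, 35.5 and 50 counts in siControl and 9, 17.5 and 32.5 counts in siKMT9α#1. These correspond to 2.07, 2.19 and 2.60 CPM and to 0.68, 1.28 and 1.70 CPM, with a wide spread in the second group. The groups did not overlap, and the mean went from 2.29 ± 0.28 to 1.22 ± 0.51 CPM, a log2 fold change of -0.85 (SE 0.25, adjusted p = 0.00452, edgeR's quasi-likelihood test). Leaving out 1 sample at a time gave log2 fold changes between -1.19 and -0.59, so its size is the least certain among the D cyclins.

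**Figure D2:**
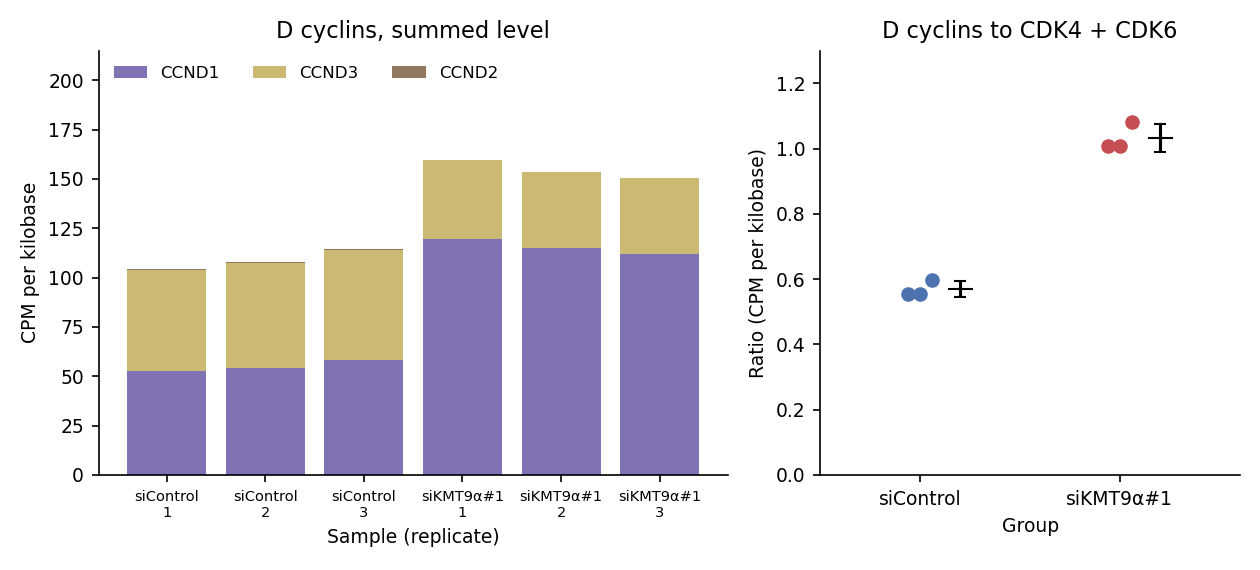
Left, summed level of the D cyclins in each sample as CPM per kilobase, stacked by gene. Right, ratio of that sum to the summed level of CDK4 and CDK6, with the 3 samples of each group and the mean with its SD beside them. CCND1 fills about equal parts with CCND3 in siControl and most of the bar in siKMT9α#1, and CCND2 is too low to be seen.

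Measured per kilobase, CCND1 made up 50.4%, 50.1% and 51.1% of the D-cyclin mRNA in siControl and 74.9%, 75.0% and 74.3% in siKMT9α#1. The groups were far apart compared with the spread of their samples. The share of CCND3 went from 49.2% ± 0.53 to 25.1% ± 0.31 and that of CCND2 from 0.32% ± 0.024 to 0.12% ± 0.054 (SD, n = 3; exact permutation p = 0.1 for each of the 3 shares). As the sum of the 3 genes went from 108.8 ± 5.06 to 154.7 ± 4.62 CPM per kilobase, the total D-cyclin mRNA was higher although 2 of its 3 members were lower. Set against the kinases, the ratio of D-cyclin to CDK4 plus CDK6 mRNA was 0.554, 0.555 and 0.597 in siControl and 1.01, 1.01 and 1.08 in siKMT9α#1. This ratio did not overlap between the groups, and it and the sums were added after the data had been seen. With trends in GC content and length removed, the log2 fold changes were 0.90 for CCND1 and -0.27 for CCND3. The shares, the sum and the ratio were not computed under that setting. Equal mRNA levels say nothing about the amounts of the proteins.

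Among the CIP/KIP inhibitors, CDKN1A was the most abundant and CDKN1B fell slightly. CDKN1A, which encodes p21, an inhibitor induced by DNA damage, lies on the plus strand at chr6:36646487-36655116 (hg19). It was at 550.7, 593.6 and 582.9 CPM in siControl and at 616.2, 598.4 and 558.6 CPM in siKMT9α#1. The groups overlapped, with the highest value in siKMT9α#1 replicate 1 and the lowest in siControl replicate 1. The means were 575.7 ± 22.3 and 591.0 ± 29.5 CPM, with a log2 fold change of 0.04 (95% interval -0.07 to 0.14) and an adjusted p of 0.511 in edgeR's quasi-likelihood test. The interval leaves room for a rise or a fall of that size, and a log2 fold change this close to 0 in either direction was found in 4.63% of all genes tested.

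Scaled by library size only, CDKN1A had a log2 fold change of -0.07 (adjusted p = 0.228), a shift of about the size of that in the median of all genes, so the sign of this uncalled value is set by the scaling. With trends in GC content and length removed it was 0.19 (adjusted p = 0.000145, edgeR's quasi-likelihood test), past the threshold. CDKN1A is GC-rich at 58.1%. All 4 of its listed transcripts gave 0.03 to 0.04 in a fit with each transcript on its own row. Their spans overlap and their counts are nearly the same, so these values are not independent.

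CDKN1B, which encodes p27, an inhibitor that accumulates in resting cells, lies on the plus strand at chr12:12870302-12875305 (hg19). It was at 136.1, 133.1 and 132.9 CPM in siControl and at 110.9, 122.4 and 118.2 CPM in siKMT9α#1. The siKMT9α#1 samples were all lower, by a small margin over their own spread. The mean went from 134.0 ± 1.80 to 117.2 ± 5.81 CPM, a log2 fold change of -0.19 (SE 0.049, adjusted p = 0.00156, edgeR's quasi-likelihood test). It was the smallest change among the 7 members called. The log2 ratio of CDKN1A to CDKN1B per kilobase went from 2.19 ± 0.075 to 2.42 ± 0.12 (SD, n = 3; exact permutation p = 0.1).

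The starts of both CIP/KIP genes are shown side by side because they carry different motifs: CDKN1A has 4 GC boxes, the element bound by SP1, and CDKN1B has 3 CCAAT boxes, the element bound by NF-Y, and 1 GC box. The windows have the same length as that of CDK4 (GRCh38.p14, plus strand, chr6:36678464-36678763 and chr12:12717118-12717417), and capitals mark these motifs on either strand.
CDKN1A: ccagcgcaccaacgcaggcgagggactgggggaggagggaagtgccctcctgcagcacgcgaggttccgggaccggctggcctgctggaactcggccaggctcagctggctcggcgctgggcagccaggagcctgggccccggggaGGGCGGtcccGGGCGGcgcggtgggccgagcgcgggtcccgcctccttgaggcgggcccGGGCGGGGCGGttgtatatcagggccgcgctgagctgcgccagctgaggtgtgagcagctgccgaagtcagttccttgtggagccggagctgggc
CDKN1B: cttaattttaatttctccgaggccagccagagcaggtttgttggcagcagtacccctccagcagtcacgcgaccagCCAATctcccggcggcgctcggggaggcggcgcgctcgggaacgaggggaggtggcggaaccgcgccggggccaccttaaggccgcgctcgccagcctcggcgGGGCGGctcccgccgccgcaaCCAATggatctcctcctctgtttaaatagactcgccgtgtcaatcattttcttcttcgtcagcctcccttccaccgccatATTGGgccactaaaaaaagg
At least 1 CCAAT box is found in 34.6% of all windows. Neither window holds the E-box or the E2F motif GCGGGAA, the latter present in 6.55% of windows, or TATAAA, present in 11.5%. RefSeq windows were matched for 8 of the 10 members, 14 windows in all, and the E2F motif was found in 1 of them, at 2 places, in a start of CDKN2C that also holds 6 GC boxes.

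The 3 INK4 members were low or without counts. CDKN2C, which encodes p18 and lies on the plus strand at chr1:51434367-51440306 (hg19), was the only one of these 3 with counts. It had 51.5, 51.5 and 60 counts in siControl and 19, 17 and 28 counts in siKMT9α#1. These correspond to 2.73, 3.18 and 3.12 CPM and to 1.44, 1.24 and 1.46 CPM, so that every siKMT9α#1 sample was well below every siControl sample. The mean went from 3.01 ± 0.24 to 1.38 ± 0.12 CPM, a log2 fold change of -1.12 (SE 0.19, adjusted p = 3.22e-05, edgeR's quasi-likelihood test). A fall at least this large was found in 8.58% of all genes tested. The other listed transcript, NM_078626, which overlaps it and is not separate evidence, gave -1.29.

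CDKN2A, which encodes p16 and p14ARF, and CDKN2B, which encodes p15, had 0 counts in all 6 samples, over 4 and 2 listed transcripts. A count of 0 allows up to 3 counts, which corresponds to 0.151 to 0.218 CPM depending on the sample, and this limit covers counting error only. No difference between the groups could be tested. Both genes lie on the minus strand of chromosome 9, CDKN2A at chr9:21967751-21975132 and CDKN2B at chr9:22002902-22009312 (hg19).

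The 2 genes sit in a stretch without any count. Its 4 genes, CDKN2A-AS1, CDKN2A, CDKN2B-AS1 and CDKN2B, span 153956 bases at chr9:21967138-22121093. The nearest gene with counts on one side was MTAP, a methionine salvage enzyme, which ends at base 21865969 and was at 7.69 ± 0.53 CPM in siControl and 11.3 ± 0.84 CPM in siKMT9α#1 (log2 fold change 0.55, adjusted p = 0.000108, edgeR's quasi-likelihood test). On the other side it was the transcription factor gene DMRTA1, which starts at base 22446840 and went from 15.4 ± 0.15 to 9.68 ± 0.51 CPM (log2 fold change -0.67, adjusted p = 1.45e-06, edgeR's quasi-likelihood test). The distance between these 2 genes is 580.87 kilobases. Counts were given per transcript, so they do not show which part of either gene the reads cover. Of the 30 other genes within 1500000 bases of CDKN2A, 16 were also at 0, and 5 more had fewer than 10 counts over all samples. The 16 include CDKN2A-AS1 and CDKN2B-AS1 of this stretch, and most of the others are interferon genes. A count of 0 was thus frequent among the interferon genes of this neighbourhood.

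**Figure D3:**
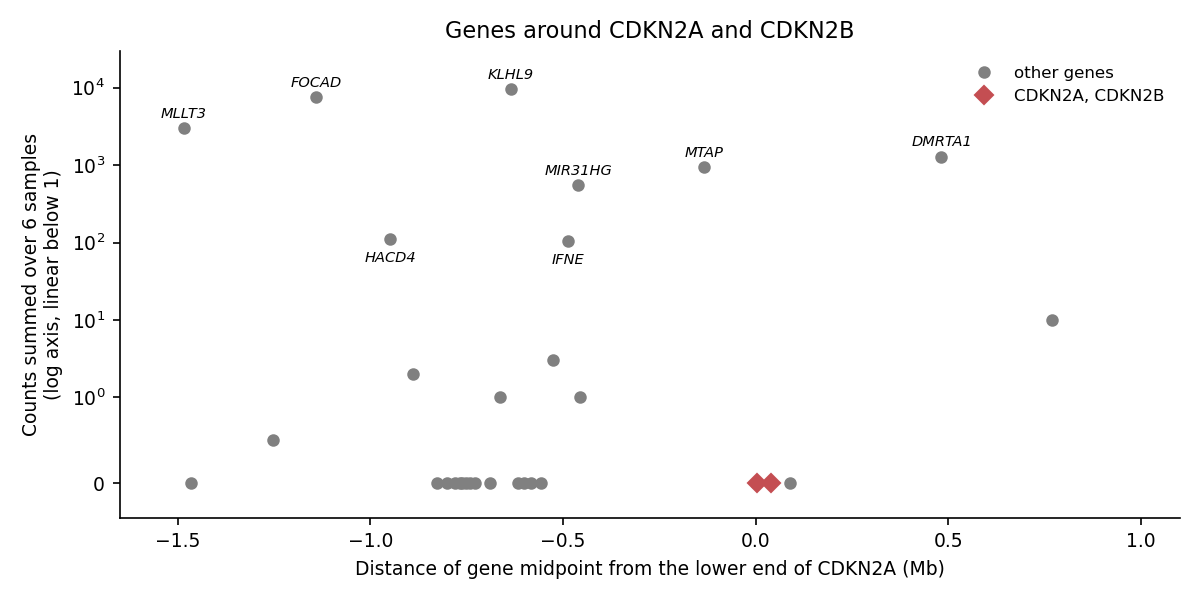
Counts summed over the 6 samples for each gene within 1500000 bases of CDKN2A, against the distance of the gene's midpoint from the lower-numbered end of CDKN2A in megabases. The count axis is logarithmic above 1 and linear below. CDKN2A and CDKN2B (diamonds) are at 0, as are 16 of the 30 other genes, and MTAP and DMRTA1 flank them with 934 and 1286.5 counts.

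Of those 30 neighbours, 8 could be tested. KLHL9 at 92.7 ± 2.35 and FOCAD at 74.6 ± 1.38 CPM in siControl had log2 fold changes of 0.07 and 0.03 (adjusted p = 0.226 and 0.641, edgeR's quasi-likelihood test). MLLT3 rose by 0.27, MIR31HG by 2.44 and IFNE by 2.58 on the log2 scale, and HACD4 fell by 1.20. Neither IFNE, which lies within the span of MIR31HG, nor HACD4 exceeded a group mean of 1.85 CPM.

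Within the level per kilobase summed over the inhibitor members, CDKN1A made up 81.6% ± 0.75 in siControl and 84.1% ± 1.11 in siKMT9α#1. CDKN1B went from 17.9% ± 0.77 to 15.7% ± 1.11 and CDKN2C from 0.46% ± 0.024 to 0.21% ± 0.024 (SD, n = 3; exact permutation p = 0.1 for each). The sum itself was 311.4 ± 9.27 and 310.4 ± 12.1 CPM per kilobase, with overlapping samples (exact permutation p = 0.9). At the mRNA level these inhibitors were therefore dominated by 1 gene, whose own difference was not past the threshold.

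**Figure D4:**
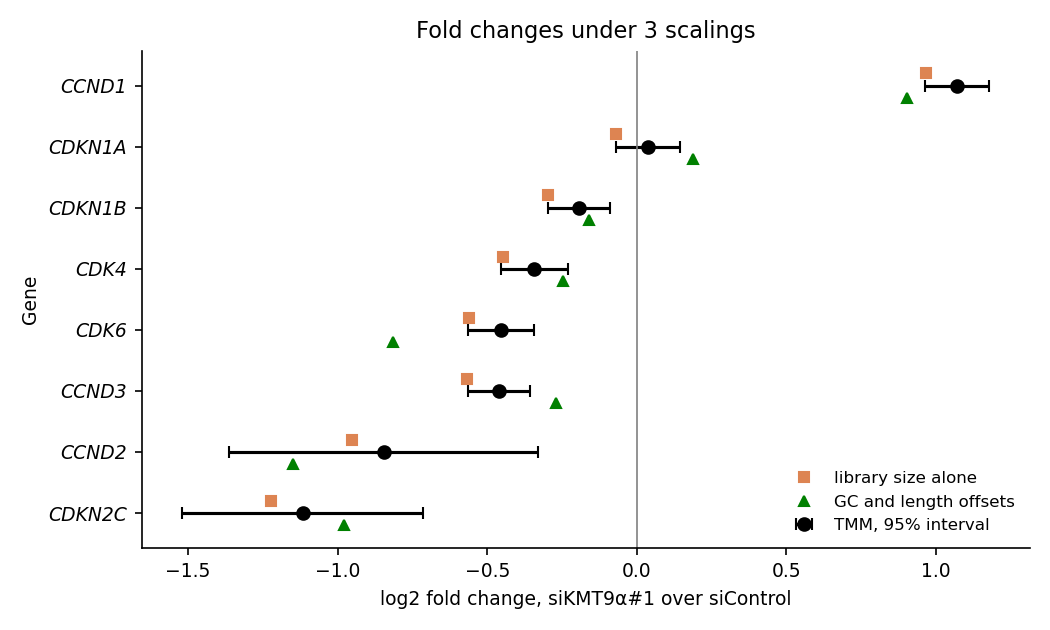
Log2 fold change of siKMT9α#1 over siControl for each tested member, with its 95% interval under TMM scaling (black), and the values under library size alone (squares) and with trends in GC content and length removed (triangles). All but CDKN1A stay on the same side of 0 under all 3 scalings, CDKN1A lies at -0.07, 0.04 and 0.19, and CDK6 moves to -0.81 with the GC and length trends removed.

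The genes that act next to the members in the pathway were counted in lists chosen by function. These counts stand against the 75.6% of all genes tested that were called, 37.1% higher and 38.5% lower, and a list near these shares is not set apart by its count. Among 9 genes for CDK2, cyclins E and A and their activators, 8 were tested, of which 5 were higher, 1 was lower and 2 were not called (median log2 fold change 0.36). CDK2, the kinase that CDKN1A and CDKN1B inhibit, rose from 10.8 ± 1.51 to 48.9 ± 2.62 CPM, a log2 fold change of 2.18 (SE 0.085, adjusted p = 2.47e-14, edgeR's quasi-likelihood test). CCNA2, which encodes cyclin A2, rose by 1.57 and the CDK2-activating phosphatase gene CDC25A by 0.95 on the log2 scale. MNAT1, an assembly factor of the CDK-activating kinase, fell by 1.18. Of 3 further inhibitors, CDKN2D, the remaining INK4 gene, fell by 0.58 and CDKN3, a phosphatase, by 0.55, and CDKN1C was at 1.86 ± 0.16 and 1.94 ± 0.50 CPM. With trends in GC content and length removed, 1 of these 3 was lower in place of 2.

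Of 13 pocket protein, E2F and E2F partner genes, 7 were higher, 4 were lower and 2 were not called (median log2 fold change 0.91). RB1 fell from 43.7 ± 1.39 to 29.6 ± 2.93 CPM (log2 fold change -0.55, adjusted p = 7.40e-07, edgeR's quasi-likelihood test), RBL2 by 0.29 and TFDP2, an E2F partner, by 0.42. The remaining pocket protein gene, RBL1, rose from 6.89 ± 0.12 to 12.9 ± 0.40 CPM, by 0.91 on the log2 scale. E2F2, E2F7 and E2F8 rose by 2.38, 2.04 and 1.85 on the log2 scale, from 1.22, 3.32 and 0.89 CPM in siControl. E2F7 and E2F8 are atypical E2F factors that do not bind pocket proteins.

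Of 16 genes for ubiquitin ligase parts and kinases that turn over D and E cyclins, p21 and p27, 7 were higher, 4 were lower and 5 were not called (median 0.11). SKP2, the F-box protein that marks p27, rose from 11.1 ± 1.77 to 19.1 ± 0.65 CPM (log2 fold change 0.80, adjusted p = 5.81e-07, edgeR's quasi-likelihood test). DTL, the receptor of the ligase that marks p21, rose by 1.88, and FBXW7, which marks cyclin E, by 0.68. FBXO4 and FBXO31, both described as F-box proteins for cyclin D1, fell by 0.93 and 0.54, and the scaffold CUL1 by 0.52.

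Of 9 factors that act on CDKN1A, CDKN1B and CDKN2B, among them FOXO and SMAD proteins, 6 were higher, 2 lower and 1 not called (median 0.30), and with GC and length trends removed 3 were higher and 3 lower. KLF6, SMAD3 and SMAD2 rose by 1.72, 1.28 and 0.48, and FOXO1 and FOXO4 fell by 1.53 and 1.02. The spans of CCNA2, RB1, RBL2 and DTL overlap those of EXOSC9, LPAR6, AKTIP and INTS7, in this order. Without strand, reads from shared bases cannot be assigned to either gene, and how many bases are shared was not measured for these pairs.

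**Figure D5:**
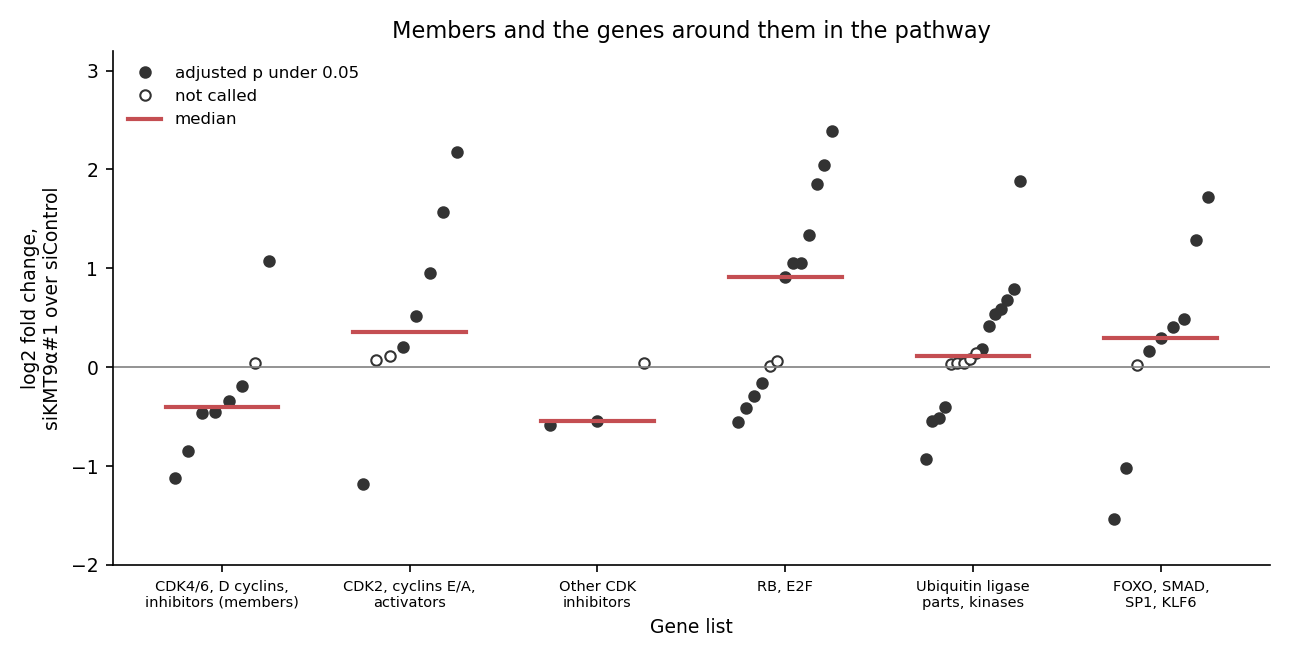
Log2 fold change of siKMT9α#1 over siControl for the 8 tested members and for the tested genes of 5 pathway lists, 1 point per gene, sorted within each list, with the median as a red line. Filled points passed an adjusted p under 0.05. The members have a median of -0.40 with CCND1 alone above 1, and the RB and E2F list has the highest median at 0.91.

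Among the genes whose pattern over the 6 samples was most like that of CCND1, out of 9486 genes with at least 10 CPM, were BCL2L1 and PRKAG2. Their root mean square differences from CCND1 were 0.033 and 0.034 on the log2 scale, after centring on the siControl mean. Their log2 fold changes were 1.08 and 1.05, which the choice by profile brings close to that of CCND1. For CDKN2C, the member with the largest fall in the TMM-scaled fit of all 6 samples, the nearest were MPLKIP, NUDCD2 and RHEBL1 at 0.048, 0.049 and 0.061. CCND2 fell by more than CDKN2C with GC and length trends removed (-1.15 and -0.98) and without siKMT9α#1 replicate 3 (-1.19 and -1.17). Reads of PRKAG2 and of the overlapping PRKAG2-AS1 cannot be told apart without strand.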

How the data were processed

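RNA-Seq was analysed for 6 A549 samples, 3 siControl and 3 siKMT9α#1. Per the study's methods and the submitters' processing notes, the authors aligned reads to hg19 with STAR version 2.5, counted them on RefSeq transcripts with HOMER (analyzeRepeats) and compared the groups with edgeR. The deposited values are estimated counts per transcript, not normalized; 36.4% are not whole and all are multiples of 0.5, and the counting options, the strand setting and the library type are not given in the sources used here. The authors also deposited p-values, raw and adjusted, and a ratio (linear fold change) from their own comparison, which were not used. Of 38767 rows, 1182 lacked a symbol or a count and were left out, which left 37585 transcripts of 23180 symbols.

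For each symbol the transcript with the largest summed count was kept. Estimated counts were rounded to whole numbers, filtered with filterByExpr, scaled with TMM factors (0.96 to 1.04) and tested with the quasi-likelihood test of edgeR 4.0.16 in R 4.3.3, with Benjamini-Hochberg adjustment over 13877 genes and a threshold of 0.05. The second rule (p below 1e-08, log2 fold change beyond 0.26) follows the study's methods. The fit pooled the spread over all 6 samples (biological coefficient of variation 4.47%), and each SE was computed from the log2 fold change and its F value. CPM were divided by TMM-scaled library sizes, and CPM per kilobase used the deposited transcript length. For totals of 13740097 to 19832395.5 counts per sample, counting error is small except for CCND2 and CDKN2C. Differences between replicates exceeded sampling noise in every pair (1.36 to 5.25 chi-square per gene). Nothing says that the biological replicates were separate batches of cells, so p-values measure the spread between these samples. Shares and ratios were compared with two-sided exact permutation tests.

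The main fit did not pair the samples by replicate number. Between samples with the same number, the correlations of deviations from the group means were -0.08, 0.02 and -0.08 for replicates 1, 2 and 3. Whether such samples were handled together is not stated in the sources used here. Alternatives were the likelihood-ratio test, DESeq2 1.42.0, library size alone, RLE factors, other filters, every transcript on its own row, the replicate block, GC content and length offsets, and leaving out each sample. GC content, exons and 3′ UTRs came from GENCODE v44lift37 (22003 symbols matched), and promoter windows from RefSeq (GRCh38.p14). No window was matched for CCND1 or for CCND2.

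The members and lists were chosen with earlier results of these data known. Besides the members, N6AMT1 and the genes around CDKN2A, the text names up to 3 genes per list with the largest changes in each direction among those called with a mean of at least 1 CPM, RB1, CDK2 and SKP2, and genes among the 3 nearest profiles to the extreme members. Some items that this rule selects, and 1 list, are not reported here. Other genes named beside these (CDKN1C, RBL1, KRT7, COL1A2, CD3E and the overlapping genes) were chosen after their values were seen.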

Additional observations from a re-analysis of the deposited data

How the results depend on the processing

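At an adjusted p under 0.05, the member counts (1 higher, 6 lower) were the same under every alternative run except the GC content and length offsets, where CDKN1A joined and 2 were higher, also with the replicate block added, and the filter of at least 10 counts in every sample, which removed CCND2 and left 5 lower. Under the study's stricter threshold no member was lower in edgeR's quasi-likelihood test, where 6 were lower at an unadjusted p under 0.05, against 3 with DESeq2, 3 with the likelihood-ratio test and 3 with no filter on low counts (CDK4, CDK6 and CCND3 each time), 2 with library size alone (CDK6 and CCND3), 1 with GC content and length offsets and 1 with these and the replicate block (CDK6), and 1 with at least 10 counts in every sample and 1 with every transcript on its own row (CCND3). Leaving out 1 sample gave 0 to 1: CCND3 without siControl replicate 1, and CDK6 without siKMT9α#1 replicate 3. The uncalled log2 fold change of CDKN1A was -0.068 with library size alone, a setting that moves the median of all genes by -0.11, and over all alternatives its log2 fold change reached at most 0.19. Library size alone also moved the split over all genes from 5150 higher and 5342 lower to 4359 and 6212.

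Fitting the replicate number as a block, 1 member was higher and 6 were lower, and over all genes 5017 were higher and 5212 lower. The block changed no call of a member. The cause of these differences between settings was not tested. Depth limits CCND2 and CDKN2C, with at most 60 counts in a sample, and CDKN2A and CDKN2B, where 0 counts allow up to 3.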
